A study of Mus musculus with 9 samples.

Results

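The proteasome genes described here are the 50 genes whose symbols begin with Psma, Psmb, Psmc, Psmd, Psme, Psmf or Psmg, out of 24054 genes in the deposited count files. They were measured by mRNA sequencing in 9 libraries of type 2 dendritic cells (DC2) sorted from mouse spleen, 3 libraries per group. All mice were C57BL/6 and carried Clec9a-Cre/Cre Rosa-tdTomato/tdTomato, so that a cell in which Clec9a drove Cre, now or in a precursor, expresses the red fluorescent protein tdTomato (TOM). The groups were TOM+ cDC2 from mice at postnatal day 8, TOM- DC2 from mice at postnatal day 8, and TOM+ cDC2 from adult mice of 8 weeks (2 libraries) or 9 weeks (1 library). Every group was sorted as live, autofluorescence-negative cells positive for MHCII, CD11c and CD11b. Both alleles of Clec9a carry Cre in all 3 groups, the label depends on past Cre activity in each cell, and spleens of the youngest mice were pooled before sorting. Nothing in the labels ties a library to a single animal, so the p-values measure the spread between these libraries.

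The proteasome degrades proteins marked with ubiquitin. Its 20S core is a barrel of alpha and beta rings, and the proteolytic sites lie on the beta subunits encoded by Psmb5, Psmb6 and Psmb7. In immune cells and after exposure to interferon gamma, these are replaced by the immunoproteasome subunits encoded by Psmb8, Psmb9 and Psmb10, which changes the peptides that are made for presentation on MHC class I. The 19S particle (Psmc ATPases and Psmd non-ATPases) binds ubiquitinated proteins and feeds them to the core, the PA28 activator (Psme1 and Psme2) opens the core without ubiquitin, and dedicated chaperones assemble both particles.

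The promoters of the catalytic genes are shown first because the comparison of Psmb8, Psmb9 and Psmb10 with Psmb5, Psmb6 and Psmb7 carries most of the results. Each line gives the 250 bases before the transcription start on the gene's own strand, taken from RefSeq on GRCm38.p6, the same assembly as the mm10 build the authors aligned to. Psmb5 lies on the minus strand (promoter chr14:54617996-54618245), Psmb6 on the plus strand (chr11:70525107-70525356), Psmb8 on the plus strand (chr17:34197945-34198194), Psmb9 on the minus strand (chr17:34187331-34187580) and Psmb10 on the minus strand (chr8:105938393-105938642). Psmb7 had no entry in the table. Capitals mark matches, on either strand, to the gamma-activated sequence of interferon-responsive promoters (GAS, TTCNNNGAA), a core of the interferon-stimulated response element (ISRE core, GAAANNGAA) or the antioxidant response element (ARE, TGACNNNGC), to which NFE2L1, an activator of proteasome genes, binds.
Psmb5: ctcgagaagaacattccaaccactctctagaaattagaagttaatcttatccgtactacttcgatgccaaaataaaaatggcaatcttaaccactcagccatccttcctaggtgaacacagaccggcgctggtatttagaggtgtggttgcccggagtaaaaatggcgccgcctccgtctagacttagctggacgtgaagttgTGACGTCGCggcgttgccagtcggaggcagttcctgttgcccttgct
Psmb6: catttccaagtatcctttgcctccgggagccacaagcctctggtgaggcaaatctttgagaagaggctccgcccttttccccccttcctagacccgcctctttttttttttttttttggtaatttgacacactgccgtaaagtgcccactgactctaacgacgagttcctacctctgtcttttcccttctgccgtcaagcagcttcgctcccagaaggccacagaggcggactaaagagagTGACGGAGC
Psmb8: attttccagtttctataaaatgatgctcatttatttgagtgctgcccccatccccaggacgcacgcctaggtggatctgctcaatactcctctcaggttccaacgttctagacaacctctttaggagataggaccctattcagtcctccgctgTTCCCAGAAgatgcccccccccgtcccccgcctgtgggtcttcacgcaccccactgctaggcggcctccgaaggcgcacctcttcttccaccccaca
Psmb9: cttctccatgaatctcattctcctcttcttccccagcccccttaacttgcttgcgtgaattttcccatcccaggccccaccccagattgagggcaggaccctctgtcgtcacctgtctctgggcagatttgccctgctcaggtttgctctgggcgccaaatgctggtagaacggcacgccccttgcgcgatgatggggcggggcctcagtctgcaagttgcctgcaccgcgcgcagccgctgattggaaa
Psmb10: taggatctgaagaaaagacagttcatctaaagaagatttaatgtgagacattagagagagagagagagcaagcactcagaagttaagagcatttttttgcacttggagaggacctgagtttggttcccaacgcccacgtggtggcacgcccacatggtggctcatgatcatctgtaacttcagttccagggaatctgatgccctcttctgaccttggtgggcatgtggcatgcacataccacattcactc

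Psmb5 and Psmb6 each held 1 ARE match, which began at position -47 and -9 from the start. The start of Psmb6 differs between annotations: the RefSeq gene span begins 33 bases before the start used here, so that the match lies inside that span, and the GENCODE M21 gene begins 10 bases after it. Psmb8 held 1 GAS match, at -97. Psmb9 and Psmb10 held none of these motifs in this window, which says only that these letters are absent from it, and Psmb9 held a CCAAT box at -8. Of the 50 genes, 42 had a promoter in the table. In the 250-base window an ARE match was present in 5 of the 42 (Psmb5, Psmb6, Psmc6, Psmd12 and Psmd9) against 10.2% of 32851 promoters, a GAS match in 2 (Psmb8 and Psmg1) against 7.02%, an ISRE core in 3 (Psmb3, Psmd4 and Psmd9) against 7.13%, and CCAAT in 15 against 33.8%. When the 50 bases after the start were included, the numbers were 6 against 12.4%, 3 against 8.3%, 7 against 8.56% and 15 against 37.4%, and Psme1 was among the 7 with an ISRE core. No matches of different motifs overlapped in the 250-base windows. Psmb8 and Psmb9 lie near each other on chromosome 17 with both subunits of the TAP peptide transporter between and beside them: 225 bases separate Psmb9 from Tap1, 969 bases separate Tap1 from Psmb8, and 3024 bases separate Psmb8 from Tap2.

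Each library held between 12783252 and 22809401 reads assigned to genes. Of 9 cDC2 markers, all were present, from a mean of 11.7 TPM (transcripts of a gene, corrected for length and scaled to the library's total) for Clec10a in adults to 28827 TPM for H2-Ab1 in adults. Between TOM+ cDC2 at 8 days and adults 8 of the 9 (all but Zbtb46) were called by edgeR: Itgam, Sirpa and Clec10a were higher at 8 days, the last by 3.48-fold, and Itgax, Irf4, H2-Ab1, Cd209a and Flt3 were higher in adults. In TOM- DC2 against adults 3 were called higher at 8 days and 5 higher in adults, with Zbtb46 called and Irf4 not. Markers of other cells summed to 201 to 253 TPM for cDC1, 60.9 to 80.7 TPM in young and 41.1 to 53.8 TPM in adult libraries for B cells (Cd79b was most of it, and Cd79a and Pax5 averaged under 1 TPM in every group), at most 5.24 TPM for T and NK cells, 104 to 164 TPM for plasmacytoid DC (Bst2 was most of it, and Siglech averaged under 1 TPM in every group) and 43.3 to 92.5 TPM for monocytes and macrophages. Batf3 was most of the cDC1 sum, with group means of 158 to 187 TPM. Of the other cDC1 markers, Cadm1 and Irf8 averaged 6.54 to 47.2 TPM and Xcr1 and Tlr3 2.3 to 3.3 TPM. Clec9a itself averaged under 1 TPM in every group, but both of its alleles carry Cre here, so its level is no measure of cDC1. Erythroid markers reached 699 TPM in a TOM- library and 45.8 TPM at most in the other groups. In that TOM- library most of the sum was Hba-a1 (444 TPM), Hbb-bs (192 TPM) and Hbb-bt (56.7 TPM). These globin genes had no uniquely assigned reads in any library, so their TPM rest on reads shared out between matching genes. Neutrophil markers reached 14 TPM in a TOM- library and 0.94 TPM at most in the other groups. Summed proliferation markers were higher in the young groups (720 to 765 TPM in TOM+ and 678 to 724 TPM in TOM-) than in adults (389 to 450 TPM), and 4 of the 5 (all but Pcna) passed the test in both young groups. The part of these other cells, of the DC markers that moved with age and of proliferation in the proteasome values was not tested, and in sorted bulk cells fewer cells of a type and less RNA per cell cannot be told apart.

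Proteasome genes together made up 1.17% ± 0.0107 (SD, n = 3) of all TPM in TOM+ cDC2 at 8 days, 1.15% ± 0.0187 in TOM- DC2 at 8 days and 0.948% ± 0.00465 in adult TOM+ cDC2. The first question was how these genes differ with age within the TOM+ lineage. Most core, ATPase and chaperone genes were higher at 8 days by a modest amount, whereas Psmb9, Psmb10, Psme1 and Psme2 were higher in adults. Fold changes are on the log2 scale from edgeR's quasi-likelihood test on read counts, with Benjamini-Hochberg adjustment over all genes tested, and a gene was called at an adjusted p under 0.05. Of the 50 genes, 49 passed the filter on low counts. Of the 49, 35 were called higher at 8 days (background of all 14452 genes tested, 21%), 5 were called higher in adults (background 19.5%) and 9 were not called. The median log2 fold change was 0.33, against 0.05 over all genes tested. A change beyond 1 on the log2 scale, the size the study required, was called for 2 of the 49 (background 12.8%). Most of these genes are abundant: 42 had an average count of at least 500, and among the 5854 genes tested at that depth 27.8% were called higher at 8 days and 26.5% higher in adults. That depth limit was chosen after the values were seen.

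**Figure D1:**
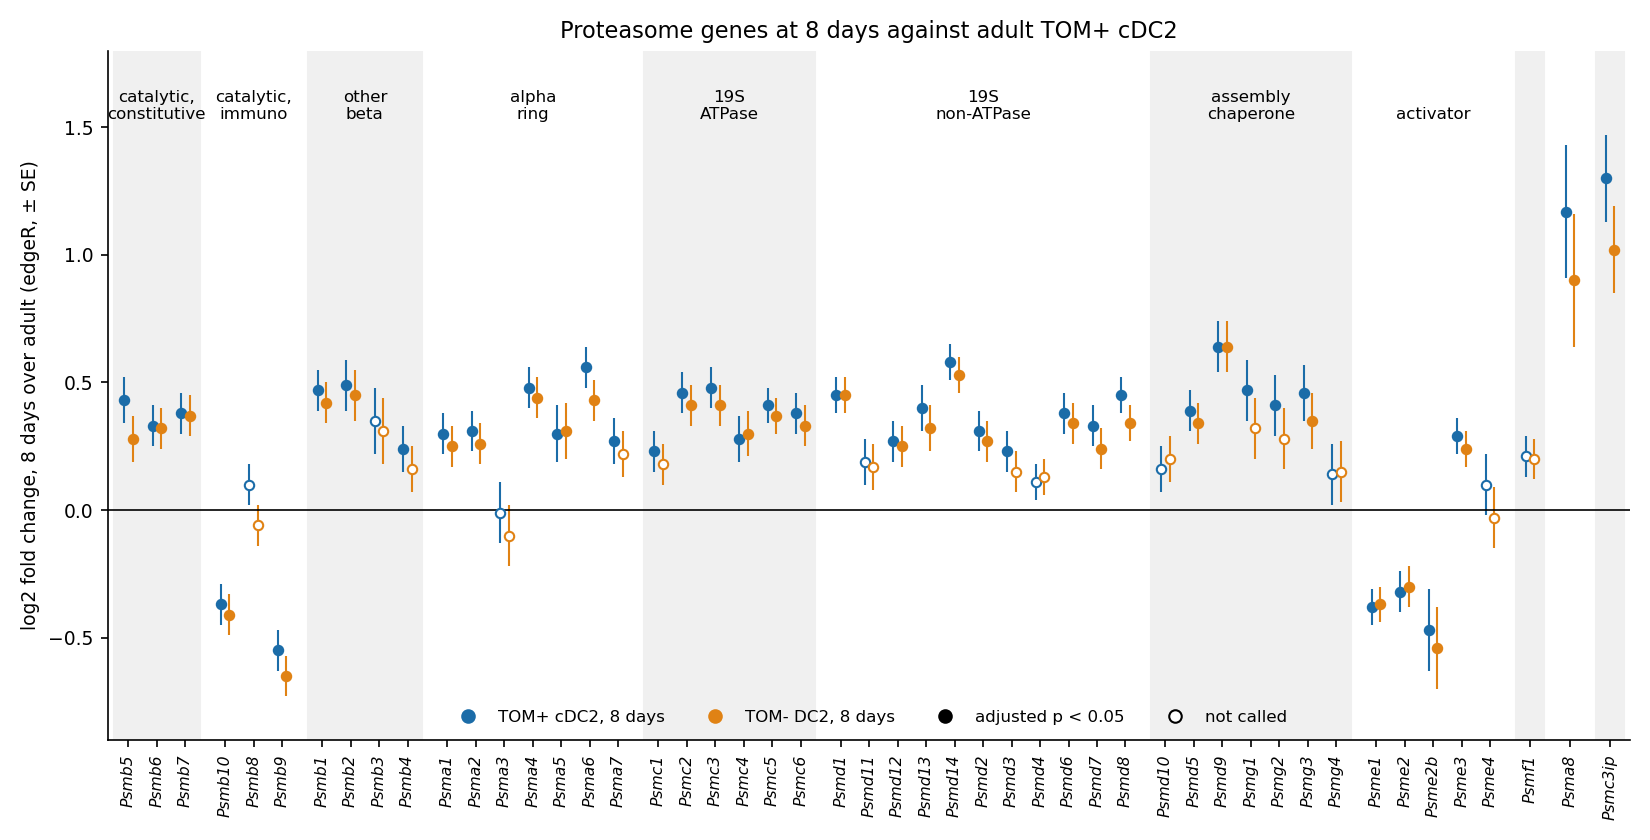
Log2 fold change of each tested proteasome gene at 8 days over adult TOM+ cDC2, grouped by role, for TOM+ cDC2 (blue) and TOM- DC2 (orange); bars are standard errors, filled points have an adjusted p under 0.05, and the 3 unlabelled columns on the right are the inhibitor Psmf1, the testis core gene Psma8 and Psmc3ip. Most points lie between 0.1 and 0.6, while Psmb9, Psmb10, Psme1, Psme2 and Psme2b lie below 0 and are called in both comparisons. Psma3 also lies below 0 in both, at -0.01 (TOM+) and -0.10 (TOM-), and is not called.

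Of the constitutive catalytic genes, all 3 were called higher at 8 days. Psmb5, which encodes the chymotrypsin-like subunit, measured 301, 302 and 325 TPM in TOM+ cDC2 at 8 days, 281, 293 and 299.7 TPM in TOM- DC2, and 213, 233 and 207 TPM in adult TOM+ cDC2. Psmb6, the caspase-like subunit, measured 388, 379.6 and 375 TPM, then 369, 389 and 392 TPM, and 267, 268.5 and 289 TPM in adults. Psmb7, the trypsin-like subunit, measured 209.9, 206 and 207 TPM, then 206, 212 and 204 TPM, and 144, 143 and 147 TPM in adults. In each of these genes the lowest young library lay above the highest adult library. The young groups overlapped for Psmb6 and Psmb7, whereas for Psmb5 every TOM+ library lay above every TOM- library. The log2 fold change of TOM+ cDC2 at 8 days over adults was 0.43 ± 0.09 (SE, adjusted p = 0.0026) for Psmb5, 0.33 ± 0.08 (adjusted p = 0.0061) for Psmb6 and 0.38 ± 0.08 (adjusted p = 0.0019) for Psmb7.

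The immunoproteasome genes did not move with them. Psmb9, the counterpart of Psmb6, measured 526, 448 and 481 TPM in TOM+ cDC2 at 8 days, 493, 444 and 459.5 TPM in TOM- DC2, and 689.6, 644 and 626 TPM in adults. Psmb10, the counterpart of Psmb7, measured 196, 179 and 189 TPM, then 202, 177 and 181 TPM, and 216, 239 and 212 TPM in adults. For both genes every adult library lay above every young library. The log2 fold change of TOM+ cDC2 at 8 days over adults was -0.55 ± 0.08 (SE, adjusted p = 0.00016) for Psmb9, a 1.47-fold higher level in adults, and -0.37 ± 0.08 (adjusted p = 0.0035) for Psmb10, a 1.29-fold higher level in adults. Both folds are from scaled counts. The TPM differ by less, with means of 485 against 653 in adults for Psmb9 and 188 against 223 for Psmb10. Psmb8, the counterpart of Psmb5, was the most abundant of all 50 genes at 8 days per transcript length, with 823, 815 and 786 TPM in TOM+ cDC2, 761, 738 and 717 TPM in TOM- DC2, and 740.2, 663 and 663 TPM in adults. Its adult libraries overlapped those of TOM- DC2, and both lay below those of TOM+ cDC2. It was not called in counts, with a log2 fold change of 0.10 ± 0.08 (adjusted p = 0.35). On TPM it was called: limma on log2(TPM + 1) gave 0.23 (adjusted p = 0.016), on a scale that placed the proteasome genes 0.13 higher at 8 days than the counts did and the median of all genes at 0.10.

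**Figure D2:**
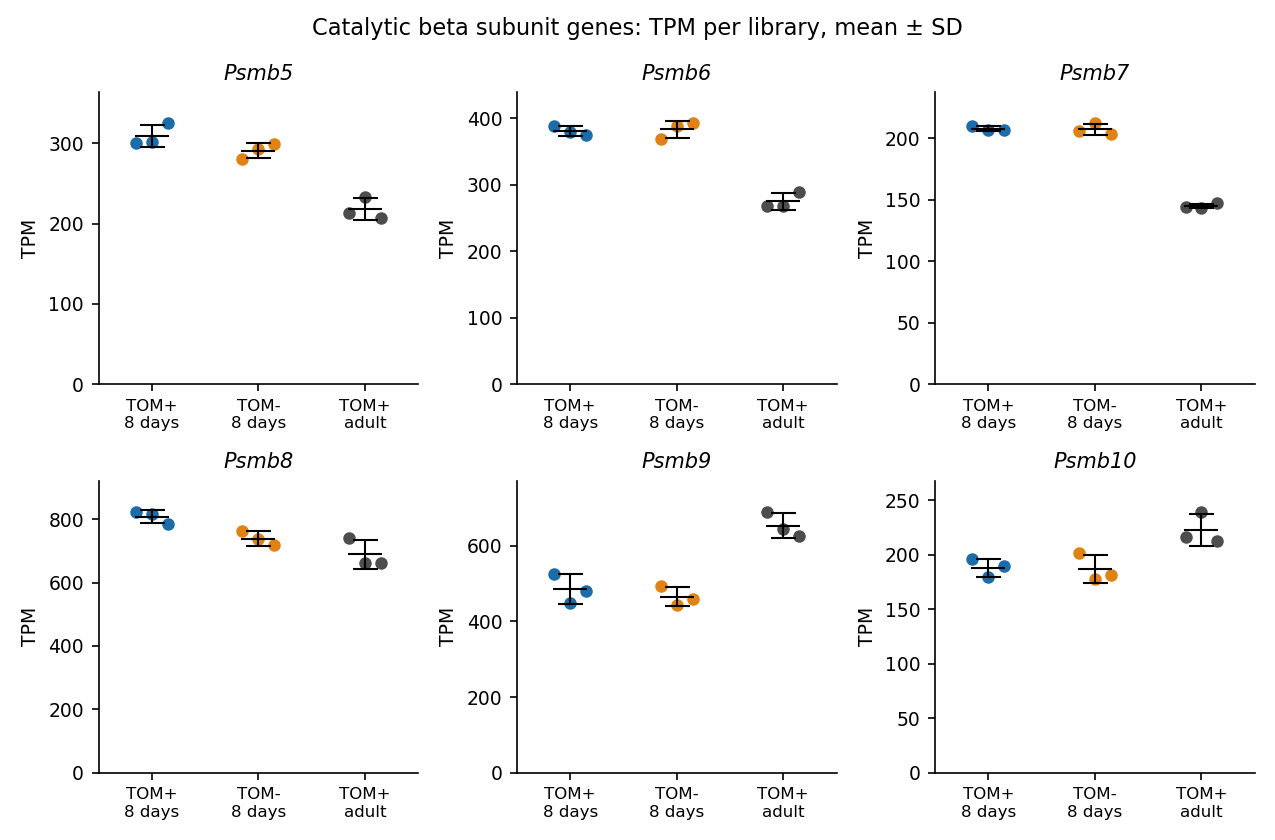
TPM of the 6 catalytic beta genes in each of the 9 libraries, with constitutive genes in the upper row and immunoproteasome genes in the lower row; points are libraries, and bars are the mean and SD of 3. Psmb5, Psmb6 and Psmb7 are lower in every adult library than in any young one, Psmb9 and Psmb10 are higher in every adult library, and Psmb8 overlaps between adults and TOM- DC2.

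A ratio of an immunoproteasome gene to its constitutive counterpart within a library does not depend on how libraries are scaled. The TPM ratio of Psmb9 to Psmb6 was 1.35, 1.18 and 1.28 in TOM+ cDC2 at 8 days, 1.34, 1.14 and 1.17 in TOM- DC2, and 2.58, 2.4 and 2.16 in adults. Its mean was 1.27 ± 0.0883 (SD, n = 3), 1.22 ± 0.106 and 2.38 ± 0.208, a geometric mean 1.87-fold higher in adults than in TOM+ cDC2 at 8 days. The ratio of Psmb10 to Psmb7 was 0.932, 0.869 and 0.916, then 0.981, 0.836 and 0.89, and 1.5, 1.67 and 1.44 in adults. It was therefore below 1 in all 6 young libraries and above 1 in all 3 adult libraries, and 1.7-fold higher in adults than in TOM+ cDC2 at 8 days. The ratio of Psmb8 to Psmb5 was 2.74, 2.7 and 2.42, then 2.71, 2.52 and 2.39, and 3.47, 2.84 and 3.2 in adults, which is 1.21-fold higher in adults. In all 3 pairs the adult libraries lay above all young libraries. The exact two-sided permutation test gave p = 0.1 for each of these 6 comparisons of adults with a young group, the smallest p that 3 against 3 libraries can give, and 0.15 after Benjamini-Hochberg adjustment over 9 comparisons. Among the transcripts of all 6 catalytic genes, Psmb8, Psmb9 and Psmb10 made up 62.2% ± 0.85 (SD, n = 3) of TPM in TOM+ cDC2 at 8 days, 61.2% ± 1.57 in TOM- DC2 and 71% ± 1.3 in adults. The constitutive genes summed to 898 ± 9.34, 882 ± 23 and 638 ± 11 TPM, and the immunoproteasome genes to 1481 ± 55.9, 1391 ± 56.7 and 1564 ± 74.5 TPM.

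**Figure D3:**
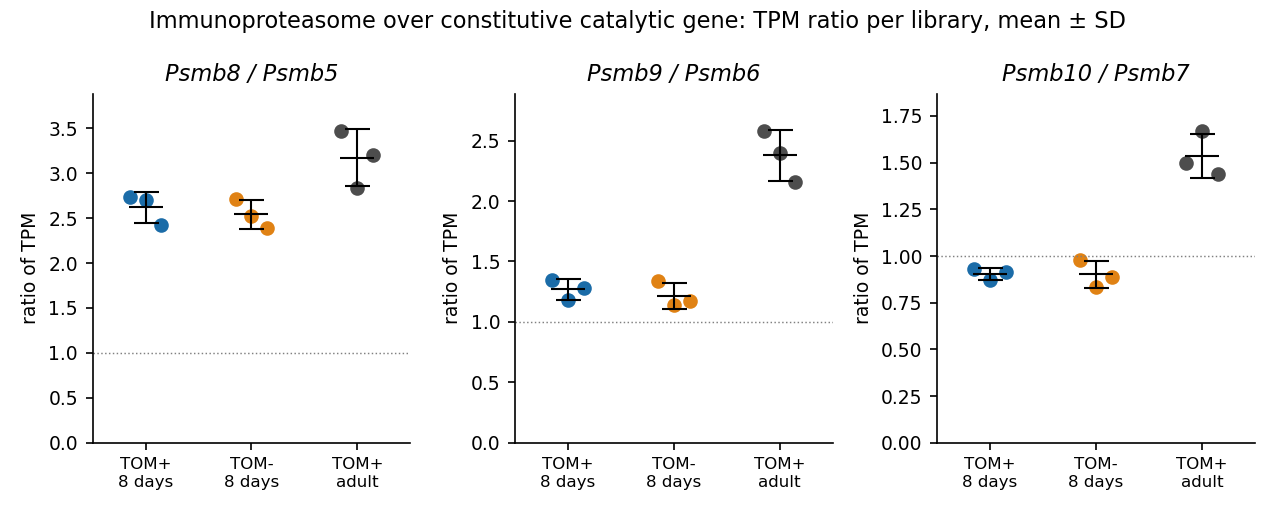
TPM ratio of each immunoproteasome gene to its constitutive counterpart in each library; points are libraries, bars are the mean and SD of 3, and the dotted line marks a ratio of 1. The 3 adult libraries lie above all 6 young libraries in every pair, and only for Psmb10 over Psmb7 do the young libraries lie below 1.

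Of the remaining core genes, 6 of 7 in the alpha ring and 3 of 4 in the beta ring were called higher at 8 days in TOM+ cDC2, and none higher in adults. Among the alpha calls, that of Psma5 (0.30, adjusted p = 0.044) was lost in 6 of the 9 fits that left out a library. That of Psma7 (0.27, adjusted p = 0.036) was lost in 5 of them, and the adjusted p rose to at most 0.14 for both. The alpha genes, whose products form the outer rings and the gate of the core, ranged at 8 days from 184 TPM (Psma5) to 555 TPM (Psma7) in mean level. Psma6 had the largest log2 fold change among them, 0.56 ± 0.08 (SE, adjusted p = 0.00019), with 327, 339.6 and 338 TPM at 8 days in TOM+ cDC2 and 207, 201 and 218 TPM in adults. Psma3 had the smallest, -0.01 ± 0.12 (adjusted p = 0.94), and it is a gene whose unique reads were few, as given below. Psmb2, which encodes a structural subunit of the beta ring, had 0.49 ± 0.10 (adjusted p = 0.0018), and Psmb4, also structural, 0.24 ± 0.09 (adjusted p = 0.042). The call of Psmb4 was lost when any library other than TOM+ replicate 1 or TOM- replicate 1 was left out (0.17 to 0.27, adjusted p of 0.053 to 0.2). Psmb3 was not called at 0.35 (adjusted p = 0.055) but was called when the young libraries were blocked by the number in their names, at 0.34 (adjusted p = 0.0066).

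The ATPase ring of the 19S particle unfolds substrates, and all 6 of its genes were called higher at 8 days in TOM+ cDC2. Their log2 fold changes ran from 0.23 ± 0.08 (SE, adjusted p = 0.039) for Psmc1 to 0.48 ± 0.08 (adjusted p = 0.00052) for Psmc3. The call of Psmc1 was lost without TOM+ replicate 2 or 3, TOM- replicate 3 or any adult library (0.15 to 0.25, adjusted p of 0.055 to 0.22). Psmc3 measured 251, 255 and 253 TPM in TOM+ cDC2 at 8 days, 249, 245 and 244.5 TPM in TOM- DC2, and 165, 174 and 160.1 TPM in adults, with no overlap of adults and young libraries. Of the non-ATPase subunits, which bind and deubiquitinate substrates and hold the lid together, 9 of 11 were called higher at 8 days and none higher in adults. Psmd14, the deubiquitinase of the lid, had the largest log2 fold change, 0.58 ± 0.07 (adjusted p = 6.5e-05), with 243, 229.6 and 223 TPM in TOM+ cDC2 at 8 days, 244, 228 and 217 TPM in TOM- DC2 and 146, 139 and 144 TPM in adults. Psmd4, a ubiquitin receptor, had the smallest, 0.11 ± 0.07 (adjusted p = 0.27). Of the 7 assembly chaperones, 5 were called higher at 8 days and none higher in adults. They were the least abundant of the general proteasome genes, with a median level over genes of 52.2 TPM at 8 days in TOM+ cDC2 and 42.8 TPM in adults, and ran from 0.14 ± 0.12 (adjusted p = 0.4) for Psmg4 to 0.64 ± 0.10 (adjusted p = 0.00034) for Psmd9, which helps to build the ATPase ring. Psmd9 measured 21.3, 22.4 and 24.1 TPM at 8 days in TOM+ cDC2 and 12.7, 13.7 and 13.8 TPM in adults.

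The activators did not all move the same way. Psme1 and Psme2, which encode the alpha and beta subunits of the interferon-inducible activator PA28, were both called higher in adults. Psme1 measured 638, 565 and 583 TPM in TOM+ cDC2 at 8 days, 648, 568 and 605 TPM in TOM- DC2, and 701, 691 and 687 TPM in adults. Psme2 measured 697, 699 and 679 TPM, then 709, 726 and 722 TPM, and 789, 767 and 784 TPM in adults. Every adult library was above every young library in both genes. The log2 fold changes of TOM+ cDC2 at 8 days over adults were -0.38 ± 0.07 (SE, adjusted p = 0.0013) and -0.32 ± 0.08 (adjusted p = 0.0046). Psme3 encodes the nuclear activator PA28 gamma and went the other way, with 208, 198 and 200.3 TPM, then 203, 197 and 198 TPM, and 148, 154 and 153 TPM in adults, a log2 fold change of 0.29 ± 0.07 (adjusted p = 0.0068). Psme4, which encodes the activator PA200, was low, at 16.3 ± 2.05 (SD, n = 3), 15.2 ± 2.04 and 13.5 ± 2.3 TPM, with overlapping groups and a log2 fold change of 0.10 ± 0.12 (adjusted p = 0.55). Psmf1, which encodes the inhibitor PI31, measured 26.1 ± 1.79, 26.5 ± 0.61 and 20.6 ± 0.566 TPM and was not called, at 0.21 ± 0.08 (adjusted p = 0.066). Psme2b, a copy of Psme2, was called higher in adults at -0.47 ± 0.16 (adjusted p = 0.03), but it shared 69.3% of its 50-base windows with another gene and was not called on log2(TPM + 1), at -0.29 (adjusted p = 0.062). Its call was also lost when TOM+ replicate 2 or 3 or any adult library was left out (-0.41 to -0.49, adjusted p of 0.054 to 0.1).

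**Figure D4:**
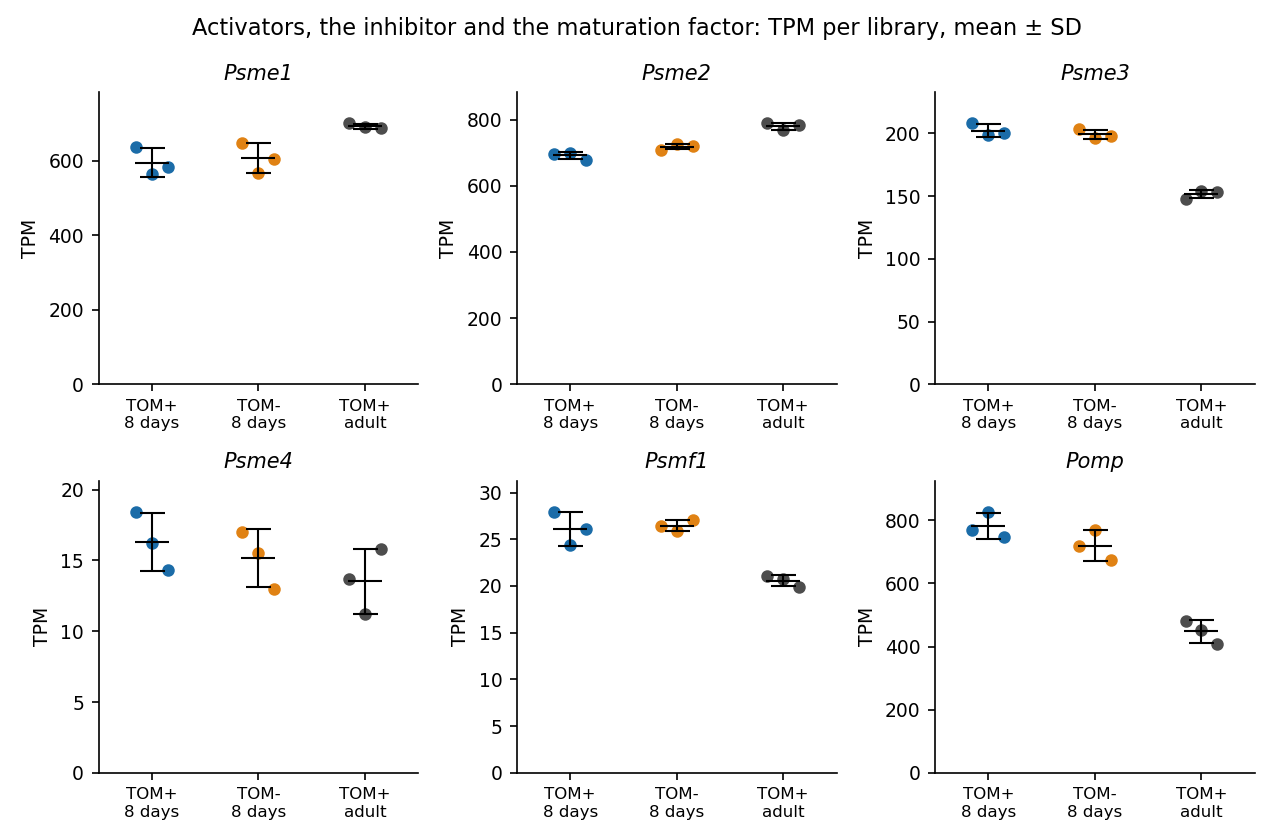
TPM in each library of the activator genes Psme1, Psme2, Psme3 and Psme4, the inhibitor Psmf1 and the maturation factor Pomp; points are libraries, and bars are the mean and SD of 3. Psme1 and Psme2 are higher in every adult library, Psme3, Psmf1 and Pomp are lower in every adult library, and Psme4 overlaps between groups.

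Of the 49 genes tested, the 2 that changed by more than 1 on the log2 scale were not general subunits. Psmc3ip, whose symbol the rule takes in, encodes a partner of the ATPase PSMC3 that acts in homologous recombination and is no subunit. It measured 22.6, 23.6 and 21.1 TPM in TOM+ cDC2 at 8 days, 18.5, 19.6 and 18.2 TPM in TOM- DC2, and 6.83, 10.8 and 7.69 TPM in adults, a log2 fold change of 1.30 ± 0.17 (SE, adjusted p = 9.4e-05). Psma8, the alpha subunit of the testis proteasome, was near the limit of detection at 3.95, 4.13 and 2.83 TPM, then 2.48, 3.77 and 2.78 TPM, and 1.39, 1.64 and 1.65 TPM in adults, from 18 to 81 reads per library. Its log2 fold change was 1.17 ± 0.26 (adjusted p = 0.0032). Psmb11, the catalytic subunit of the thymic proteasome, had 0 to 3 reads per library and was not tested.

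TOM- DC2 at 8 days were set against the same adult libraries, so this comparison shares its controls with the one above and is not independent of it. Of the 49 genes, 29 were called higher at 8 days (background 19.4%), 5 higher in adults (background 16.9%) and 15 were not called, and 1 passed a change of 1 on the log2 scale (background 11.3%). The median log2 fold change was 0.28, against 0.07 over all genes tested. The 5 higher in adults were Psmb9 at -0.65 ± 0.08 (SE, adjusted p = 5.5e-05), Psmb10 at -0.41 ± 0.08 (adjusted p = 0.002), Psme1 at -0.37 ± 0.07 (adjusted p = 0.0019), Psme2 at -0.30 ± 0.08 (adjusted p = 0.008) and Psme2b at -0.54 ± 0.16 (adjusted p = 0.019). Psmb6 and Psmb7 were higher at 8 days by 0.32 ± 0.08 (adjusted p = 0.0085) and 0.37 ± 0.08 (adjusted p = 0.0025). Psmb5 was called at 0.28 ± 0.09 (adjusted p = 0.032), a call that RSEM's expected counts did not give (0.23, adjusted p = 0.075) and that was lost when TOM+ replicate 3, TOM- replicate 2 or 3, or adult replicate 1 or 3 was left out (0.22 to 0.27, adjusted p of 0.057 to 0.14). Psmb8 was not called, at -0.06 ± 0.08 (adjusted p = 0.59), and its sign turned on TPM (0.10, adjusted p = 0.22). By role, 5 of 7 alpha genes, 2 of 4 other beta genes, 5 of 6 ATPases, 8 of 11 non-ATPases and 3 of 7 chaperones were called higher at 8 days, with Psmd9 at 0.64 ± 0.10 (adjusted p = 0.0004), Psmd14 at 0.53 ± 0.07 (adjusted p = 0.00016) and Psme3 at 0.24 ± 0.07 (adjusted p = 0.02). Psmc3ip was at 1.02 ± 0.17 (adjusted p = 0.00067) and Psma8 at 0.90 ± 0.26 (adjusted p = 0.017). The call of Psme3 was lost without TOM+ replicate 3, TOM- replicate 2 or 3, or adult replicate 1 (0.21 to 0.24, adjusted p of 0.05 to 0.078), that of Psma8 without TOM- replicate 2 or adult replicate 1 (0.71 and 0.86, adjusted p = 0.075 and 0.051), and that of Psme2b without TOM- replicate 2 or 3 or adult replicate 2 (-0.48 to -0.52, adjusted p of 0.05 to 0.07). Blocking by name number raised the count of genes higher at 8 days to 33, by adding Psma7, Psmb3, Psmg1 and Psmg2 (adjusted p of 0.017 to 0.035). On log2(TPM + 1) the split was 42 higher at 8 days to 3 higher in adults. That scale placed proteasome genes 0.16 higher at 8 days than the counts did, and the median of all genes at 0.14. Not all of the 5 calls of Psmb9, Psmb10, Psme1, Psme2 and Psme2b were therefore kept on it. Without TOM- replicate 2, 19 genes were called higher at 8 days.

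Within the 8-day mice, the comparison of TOM+ cDC2 with TOM- DC2 asked whether lineage history goes with a difference in these genes. No proteasome gene was called by edgeR's quasi-likelihood test (background 1.6% of all genes tested in either direction), and 0 of 49 had an unadjusted p under 0.05. DESeq2 and the fit with the replicate block also called 0, and 1 gene (Psmb8) had an unadjusted p under 0.05 in each, with a lowest adjusted p of 0.5 and 0.38. Fitting only the 2 young groups called 0, with 2 genes (Psmb8 and Psmc3ip) at an unadjusted p under 0.05. Log2 fold changes of TOM+ over TOM- ran from -0.04 to 0.27, with a median of 0.05 against 0.00 over all genes. Psmb8 was 0.16 ± 0.08 (SE, adjusted p = 0.61), Psmb9 was 0.10 ± 0.08 (adjusted p = 0.82) and Psmb10 was 0.04 ± 0.08 (adjusted p = 0.95). Psmc3ip and Psma8 had the largest difference, 0.27 for both, with standard errors of 0.16 and 0.24. For the 3 TPM ratios, exact permutation (two-sided) gave p = 0.6 for Psmb8 to Psmb5, 0.5 for Psmb9 to Psmb6 and 1 for Psmb10 to Psmb7, and the ratios of the young groups overlapped in each pair. With the libraries paired by the number in their names, a choice made after seeing the data, the ratio was higher in TOM+ in 3 of 3 pairs for Psmb8 to Psmb5 (mean log2 difference 0.04 ± 0.05, SD) and for Psmb9 to Psmb6 (0.07 ± 0.06), and in 2 of 3 for Psmb10 to Psmb7 (0.01 ± 0.07). An exact test that flips the signs of the paired differences gave p = 0.25, 0.25 and 1, and 0.25 is the smallest p that 3 pairs can give. Psmb8 itself was higher in TPM in TOM+ in 3 of 3 pairs, with a mean log2 difference of 0.13 ± 0.02 (SD). Standard errors of the log2 fold changes ran from 0.07 to 0.24.

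Genes that work with the proteasome were taken from a list of 22, of which 21 were matched in the files and tested. The list was chosen with earlier results of these data known. In TOM+ cDC2 at 8 days against adults, 7 of the 21 were called higher at 8 days (background 21%) and 1 higher in adults (background 19.5%), with a median of 0.06 against 0.05 over all genes. Pomp, the maturation protein that assembles new 20S cores, measured 771, 827 and 746 TPM in TOM+ cDC2 at 8 days, 718, 769 and 673 TPM in TOM- DC2, and 481, 454 and 409 TPM in adults, a log2 fold change of 0.67 ± 0.10 (SE, adjusted p = 0.00026). The other 6 higher at 8 days were the proteasome-bound deubiquitinases Usp14 (0.76, adjusted p = 3.4e-05) and Uchl5 (0.71, adjusted p = 0.00011), the small 19S subunit Shfm1 (0.46, adjusted p = 0.015), the ubiquitin shuttle Rad23b (0.47, adjusted p = 0.012), the unfoldase Vcp (0.33, adjusted p = 0.0054) and Zfand2a (0.44, adjusted p = 0.013). Zfand5 was higher in adults (-0.71, adjusted p = 0.00011). Nfe2l1, which encodes a transcription factor that raises proteasome genes when proteasome activity falls short, was not called, at 34 ± 0.303 (SD, n = 3), 33.1 ± 2.78 and 35.5 ± 2.65 TPM and a log2 fold change of -0.14 ± 0.10 (adjusted p = 0.29). In TOM- DC2 against adults, 6 were called higher at 8 days (background 19.4%) and 1 higher in adults (background 16.9%), and between the young groups none was called by edgeR.

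Genes of the MHC class I pathway and its interferon-dependent control were taken from a list of 10. The list was chosen with earlier results of these data known, so its counts beside the background are a description and no independent test. In TOM+ cDC2 at 8 days against adults, 9 of 10 (all but the peptide trimmer Erap1) were called higher in adults (background 19.5%) and none higher at 8 days, with a median log2 fold change of -0.75 against 0.05 over all genes. In TOM- DC2 the counts were 9 (background 16.9%) and 0, with a median of -0.80. Nlrc5, the transactivator of class I genes, measured 9.37, 7.7 and 7.29 TPM in TOM+ cDC2 at 8 days, 9.38, 7.59 and 6.96 TPM in TOM- DC2 and 29, 34.7 and 27.2 TPM in adults, 4.17-fold higher in adults than in TOM+ cDC2 at 8 days (adjusted p = 4.8e-07). Irf1, an interferon-induced factor, was at -0.98 ± 0.10 (SE, adjusted p = 9.6e-06), and no adult library of Nlrc5 or Irf1 overlapped a young one. Tap1 and Tap2, the transporter genes beside Psmb9 and Psmb8, were at -0.64 ± 0.09 (adjusted p = 9e-05) and -0.36 ± 0.09 (adjusted p = 0.0082). No gene of this list was called between the young groups.

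Reads that match several genes bear on some of these values. STAR counted only reads with 1 best position, whereas RSEM shared reads out between matching genes, so the ratio of the counts shows how much was set aside. It was 11.4% for Psma3, 15.4% for Psme2b, 24.5% for Psma5, 27.3% for Psmb3, 30.8% for Psmb5 and 42.7% for Psme2. Their values are uncertain because so many reads were set aside. They had 50-base windows in common with other annotated transcripts, at 22%, 69.3%, 55.4%, 55.8%, 57.1% and 55.6% of their windows. The 22% of Psma3 was not exceptional: Psma4 and Psmd2 shared 31.5% and 25.2%, and their STAR counts were 59% and 74% of RSEM's. The main partner of Psmb5 was the gene model Gm3375, that of Psma3 was Gm13835, and Psme2 and Psme2b were each other's. With RSEM's expected counts the log2 fold changes of TOM+ cDC2 at 8 days over adults were 0.12 for Psma3 (adjusted p = 0.3), -0.45 for Psme2b (adjusted p = 0.0038), 0.32 for Psma5 (adjusted p = 0.01), 0.29 for Psmb3 (adjusted p = 0.074), 0.35 for Psmb5 (adjusted p = 0.011) and -0.33 for Psme2 (adjusted p = 0.0041). Each kept the call it had on STAR counts. Among genes on other lists, the STAR counts of Adrm1 were 18.9% of RSEM's, those of Vcp 19.6% and those of Ddi2 41.1%. For the proliferation markers Ccnb1 and Pcna the values were 29.1% and 34.1%. With RSEM's expected counts Vcp (0.27, adjusted p = 0.012) and Ccnb1 (1.73, adjusted p = 6.7e-05) stayed called in TOM+ cDC2 at 8 days over adults. Adrm1 (0.17, adjusted p = 0.12) and Ddi2 (-0.29, adjusted p = 0.14) were called with neither kind of count. Pcna, which was not called on STAR counts, was called there (0.31, adjusted p = 0.033). Psmb7 shared 28.1% of its windows with the overlapping gene Nek6 and Psmb9 shared 12.5% with Tap1, and the libraries kept no strand, so that reads of overlapping genes cannot be told apart.

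**Figure D5:**
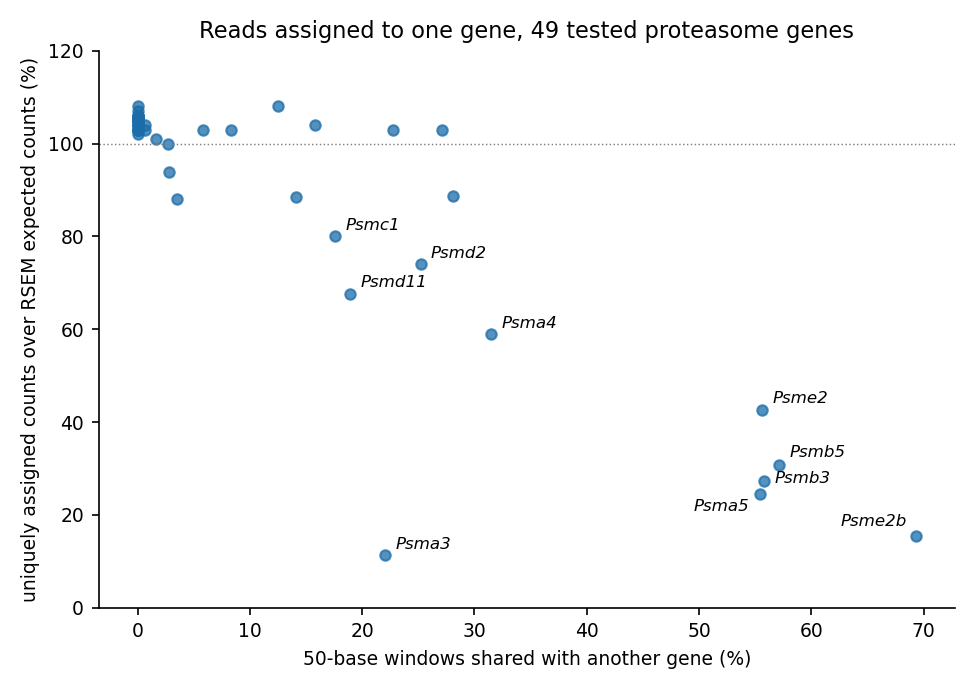
Share of 50-base windows that each of the 49 tested proteasome genes has in common with another gene (horizontal axis, percent) against STAR's uniquely assigned counts as a percent of RSEM's expected counts over the 9 libraries (vertical axis); each point is a gene, the dotted line is 100%, and genes under 85% are named. Psma3 at 11.4% and Psme2b at 15.4% kept the fewest reads, and most genes without shared windows lie near 100%.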

How the data were processed

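RNA of sorted splenic DC2 was amplified with SMART-seq v4, which keeps no strand and has no molecular identifiers, and sequenced by the study in 9 libraries. The authors aligned reads to mm10 with STAR, and deposited STAR's read counts per gene, which are not normalized, of which the unstranded column was used. They also deposited RSEM's expected counts, rounded here where tested, and RSEM's TPM, which are relative to each library's total. STAR's summary lines stayed out of library sizes, and multimapping reads were 10.44% to 13.41% of reads. Groups came from the labels. Replicates were numbered in accession order, which is a name only.

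Counts were fitted in R 4.3.3 with edgeR 4.0.16 (quasi-likelihood test, TMM factors of 0.894 to 1.08) on all 9 libraries without covariates. The 14452 genes that averaged 1 count or more per library were tested, with Benjamini-Hochberg adjustment. The smallest chi-square per gene between libraries of a group was 8.74, so none was a copy. Alternatives were DESeq2 1.42.0, RLE factors, RSEM counts, limma 3.58.1 on log2(TPM + 1) and log2(TPM + 0.1), no filter, an average count of at least 10, only the 2 groups compared, a replicate block and leaving out each library. TPM ratios were compared by exact permutation. Scripts were tested on simulated data.

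Deposited names carry numbers (81, 91 and 92 in both young groups, and 91, 92 and 95 in adults) whose meaning is not stated. Deviations from the group mean of same-numbered young libraries correlated with r = 0.5, 0.179 and 0.33 over 14452 genes, all above 0.1, so the numbers were taken to pair them. Young libraries with different numbers correlated with r = -0.409 to 0.185, and the highest of these exceeded the lowest same-number value. Adults stayed outside the block, and blocked values are given where they change a call.

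Named with values are the catalytic, Psme and restricted genes, Psmf1, the highest and lowest gene of each other role, genes beyond a log2 fold change of 1, and chosen genes of other lists. Others that are named where a count or a lost call needed it were chosen after their values were seen. The members, lists and motifs were chosen with earlier results of these data known. Motif counts are given for the 300-base promoters and for their first 250 bases, since only the latter are printed. Some results of the fixed lists are not reported here.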

Additional observations from a re-analysis of the deposited data

How the results depend on the processing

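The counts of proteasome genes called in TOM+ cDC2 at 8 days against adults were 30 to 43 higher at 8 days and 4 or 5 higher in adults over the 9 alternatives other than leaving out a library, and 27 to 36 and 4 to 5 when each library was left out. In TOM- DC2 against adults they were 20 to 42 higher at 8 days, and 5 higher in adults except on TPM, where limma called 3 with log2(TPM + 1) and 2 with log2(TPM + 0.1) on a scale that sits 0.16 higher. Leaving out each library gave 19 to 31 and 4 to 5. With the replicate block the counts were 36 to 5 and 33 to 5, it changed no other named call, and it called 0 between the young groups, as did every alternative. Of 1368 fold changes of called genes and Psmb8 over all alternatives, 1232 kept direction and call, 131 kept direction but lost the call, 2 gained it (Psmb8 on TPM in TOM+ cDC2) and 3 changed sign, all of Psmb8 in TOM- DC2 against adults (0.10 with either TPM pseudocount and 0.01 without adult replicate 1, the highest of a range from -0.11 over the libraries left out). The adult excess of each ratio kept its sign under every alternative. Leaving out a library could not turn that sign, since every adult library lay above every young one. On the log2 scale, leaving out each library gave differences between the young group and adults of -0.35 to -0.21 (TOM+) and -0.39 to -0.25 (TOM-) for Psmb8 to Psmb5, -0.97 to -0.84 and -1.04 to -0.91 for Psmb9 to Psmb6, and -0.81 to -0.70 and -0.83 to -0.71 for Psmb10 to Psmb7. Between the young groups the Psmb10 to Psmb7 difference of 0.01 ran from -0.05 to 0.07 and changed sign, at -0.01 without TOM+ replicate 1 and -0.05 without TOM- replicate 2. Pairing the young libraries, an alternative added after seeing the data, cannot change the mean differences of 0.04, 0.07 and 0.01. Every young library has a partner, so this alternative is no check of them. The cause of these moves was not tested. Each group has 3 libraries, so that the exact tests of ratios cannot pass 0.05.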
